A study of Canis lupus familiaris with 6 samples.

Results

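The genes described here are 10 receptor tyrosine kinases (RTKs) known from melanoma: MERTK, AXL, TYRO3, MET, EGFR, PDGFRA, PDGFRB, FGFR1, KIT and IGF1R. They were picked by symbol, and each had 1 row among the 30951 genes listed, which carried 16036 different symbols. RNA was sequenced from CMM12 and CMM2, a pair of canine melanoma cell lines that are labelled as such with no further origin. Each line was sequenced as podoplanin KO 1, podoplanin KO 2 and a control of WT genotype, 1 library each, 6 in all. Podoplanin (PDPN) is a mucin-like membrane glycoprotein. No label gives a treatment, the way the KO lines were made, or whether a KO line is 1 clone. All groups of a line share that line's background. The libraries are not labelled as separate cultures, so the p-values reflect the spread among them alone, technical or clonal.

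RTKs are single-pass membrane proteins that bind a ligand outside the cell, pair up and phosphorylate each other on tyrosines, which recruits adaptors and starts the RAS-ERK, PI3K-AKT and other cascades. MERTK, AXL and TYRO3 form the TAM family, whose ligands GAS6 and protein S (PROS1) bridge the receptors to phosphatidylserine on dying cells. In melanocytes KIT is needed for migration and survival, and in human melanoma high AXL and EGFR with low MITF mark a dedifferentiated state.

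The libraries held 9732925 to 11807824 rounded expected counts, the read numbers that RSEM assigns to each gene. CMM12 and CMM2 separated on the first principal component, which carried 72.5% of the variance over 8659 genes, while CMM2 KO 2 stood apart on the second and the CMM12 control on the third. PDPN transcripts were at 16.04 and 10.80 TPM in CMM12 KO 1 and KO 2, against 94.26 TPM in the CMM12 control. They were at 5.71 and 5.96 TPM in CMM2 KO 1 and KO 2, against 19.11 TPM in the CMM2 control. TPM is the transcript level scaled for transcript length and for the depth of the library, and is the scale used here between genes. Of 12 melanocyte markers 5 reached 1 TPM in a library. MITF (10.68 to 21.73 TPM) and the melanosomal transporter SLC45A2 (23.17 to 31.75 TPM) were present in all 6 libraries. DCT was at 0 in all of them, and SOX10, TYR, MLANA, S100B and EDNRB stayed at or below 0.21 TPM, so several defining markers of the labelled cell type were nearly absent. TYRP1 differed between the lines, with 152 counts summed over CMM12 and 0 over CMM2. In the edgeR test described below it was the only 1 of 5 tested markers called, higher in CMM12 (adjusted p = 0.00376), against 14.6% of all genes. With no count in CMM2, TYRP1 passed the filter on low counts through CMM12 alone and could only come out higher there.

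AXL, MET and FGFR1 were the abundant receptors in both lines. In CMM12 the mean levels over the 3 libraries were 143 ± 21.2 TPM for MET, 141 ± 3.11 TPM for AXL and 111 ± 30.1 TPM for FGFR1 (SD, n = 3). In CMM2 they were 219 ± 45.7 TPM for MET, 259 ± 56.9 TPM for AXL and 111 ± 35.2 TPM for FGFR1 (SD, n = 3). These 3 genes made up 80.1% to 90.3% of the summed TPM of the 10 receptors in every library. That sum was 440 and 479 TPM in CMM12 KO 1 and KO 2 and 429 TPM in the CMM12 control, and 762 and 542 TPM in CMM2 KO 1 and KO 2 and 721 TPM in the CMM2 control.

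Below them the order differed between the lines. In CMM12 came PDGFRA (14.1 ± 5.79 TPM), TYRO3 (13.5 ± 1.29 TPM) and IGF1R (12.7 ± 2.19 TPM), whose library ranges overlapped. EGFR (6.32 ± 2.14 TPM), MERTK (6.19 ± 4.61 TPM) and PDGFRB (2.05 ± 1.22 TPM) followed, with EGFR overlapping MERTK and MERTK overlapping PDGFRB. In CMM12 the steps with no overlap were those below FGFR1, IGF1R and PDGFRB. In CMM2 IGF1R (44.3 ± 9.84 TPM) and PDGFRA (27.0 ± 8.93 TPM) overlapped each other, then came TYRO3 (8.84 ± 0.656 TPM), EGFR (4.66 ± 1.15 TPM) and PDGFRB (0.85 ± 0.494 TPM), each below the range of the gene before. MERTK was listed at 0 in both CMM2 KO libraries and at 0.10 TPM in the CMM2 control. KIT was at 0 everywhere (SD, n = 3 for each mean).

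**Figure D1:**
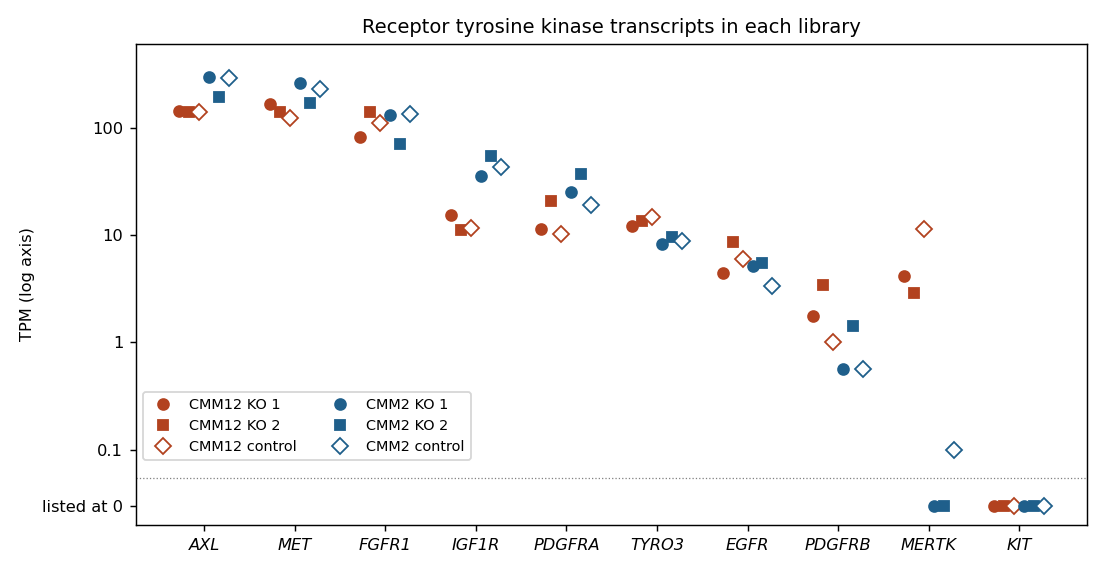
TPM of the 10 receptors in each of the 6 libraries on a log axis, filled symbols for KO and open diamonds for control, with zeros drawn on a separate line. AXL, MET and FGFR1 lie above the other receptors in every library, MERTK reaches 11.46 TPM in the CMM12 control and at most 0.10 TPM in CMM2, and KIT is at 0 in all 6.

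Between the lines, MERTK was higher in CMM12, while IGF1R, PDGFRA and AXL were lower in CMM12 than in CMM2. The test was edgeR's quasi-likelihood test with line and genotype as additive terms, and a gene is called at a Benjamini-Hochberg adjusted p under 0.05 over all 12270 genes that passed the filter on low counts. Of the 10 receptors 9 passed that filter, and KIT did not. edgeR called 4 of the 9, against 25.8% of all genes tested. It called 1 higher in CMM12, against 14.6% of all genes, and 3 lower, against 11.2%. With no overlap between the 3 libraries of CMM12 and the 3 of CMM2 were 6 of the 9, against 46.1% of all genes. Of these, MERTK and TYRO3 were higher (24.6% of all genes) and AXL, MET, PDGFRA and IGF1R were lower (21.5% of all genes). The median log2 fold change of CMM12 over CMM2 was −0.19 over the 9 receptors and 0.04 over all genes. The DESeq2 Wald test called 5, adding MET, against 29.1% of the genes it gave an adjusted p.

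**Figure D2:**
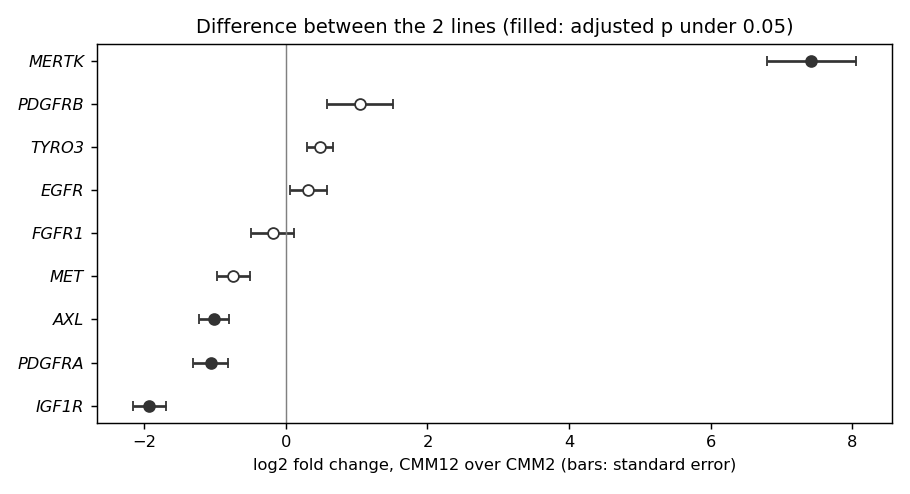
log2 fold change of CMM12 over CMM2 for the 9 receptors tested, with standard errors from edgeR, filled where the adjusted p was under 0.05. MERTK lies at 7.42 and IGF1R, PDGFRA and AXL lie between −1.93 and −1.01, while the other 5 are open.

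MERTK (ENSCAFG00000007131), the TAM receptor that drives uptake of dying cells by macrophages, was detected in CMM12 and scarcely in CMM2. It had 129 and 76 counts in CMM12 KO 1 and KO 2 and 343 counts in the CMM12 control, against 0, 0 and 3 counts in CMM2 KO 1, CMM2 KO 2 and the CMM2 control. The lowest CMM12 library lay far above the highest CMM2 library, and within CMM12 both KO libraries lay below the control. Summed over libraries, 548 counts in CMM12 against 3 in CMM2 gave a ratio of 181 per unit of library size, with an exact interval of 61.6 to 881 at 95% that covers counting error only. Between the controls alone, 343 counts in CMM12 against 3 in CMM2 gave a ratio of 103 (35.1 to 504). CMM12 KO was at least 35.5-fold higher than CMM2 KO, with CMM2 KO set at a floor of 3 counts per library. edgeR put the log2 fold change between the lines at 7.42 (SE 0.63, adjusted p = 0.000745), rank 73 of the genes tested by p. The call held in all 17 alternative settings tried, with adjusted p-values up to 0.00939, while the fitted value ran from 2.61 with limma on log2(TPM + 1), which understates low genes, to 9.72 without the CMM2 control, which leaves CMM2 at 0 and is no bound.

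Within CMM12, MERTK had 11.8 and 7.43 CPM in KO 1 and KO 2, against 29.6 CPM in the control. CPM is the count scaled to the library size after TMM normalization, and is the scale used between libraries. KO 1 stood at 39.7% of the control and KO 2 at 25.1%, and the ratio of KO to control was 0.327, with an interval of 0.274 to 0.390 for counting error only. The difference between KO and control exceeded counting error, but so did that between the KO libraries, with a ratio of KO 2 to KO 1 of 0.632 (0.470 to 0.846). KO against control did not pass edgeR across genes, with a log2 fold change of −1.62 (SE 0.48, unadjusted p = 0.0169, adjusted p = 0.772). DESeq2 gave an adjusted p of 0.977. Among the 8690 genes with at least 10 CPM in the CMM12 control, 105 (1.21%) had both KO libraries at or below the share of control that MERTK kept in KO 1, a rule chosen after the values were seen. In CMM2 all libraries were at or under the floor of 3 counts, so no fold is given. In bulk RNA, fewer cells with MERTK and less MERTK RNA per cell cannot be told apart. Across both lines edgeR gave an unadjusted p of 0.00786 and an adjusted p of 0.987 for MERTK.

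Markers of other cell types are given beside MERTK. Of 6 epithelial markers 4 were listed, and their summed level was 1.45 and 2.69 TPM in CMM12 KO 1 and KO 2, 15.05 TPM in the CMM12 control and 0 in all 3 CMM2 libraries. EPCAM was at most 0.22 TPM, and most of the control's sum was KRT14, at 13.03 TPM. The 2 epithelial markers tested, CDH1 and KRT14, were both called higher in CMM12 by edgeR (adjusted p = 0.00366 and 0.0155). With no count in CMM2 they passed the filter on low counts through CMM12 alone, so they could only come out higher there. The share of 14.6% of all genes called higher is thus no measure for them. The part of the epithelial markers in the MERTK result was not tested. Macrophage and leukocyte markers (6 of 7 listed) summed to 2.86 and 3.49 TPM in CMM12 KO and 1.79 TPM in the CMM12 control, against 3.26 and 1.56 TPM in CMM2 KO and 4.28 TPM in the CMM2 control. PTPRC, which encodes the leukocyte antigen CD45, was at 0 in all 6 libraries. Of the 3 macrophage and leukocyte markers tested, edgeR called 1 higher in CMM12, CSF1R (log2 fold change 3.08, SE 0.70, adjusted p = 0.0185), against 14.6% of all genes. CD68 (−0.65, SE 0.61) and CD163 (−1.72, SE 0.69) were lower in CMM12 and not called. The part of these markers in the MERTK result was not tested. The gene profiles nearest to MERTK, by root mean square distance of centred log2 CPM over the 6 libraries, were those of ZFP69B (0.41), ATP10A (0.41), INSYN1 (0.45) and ADAM23 (0.52).

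AXL (ENSCAFG00000005041), the TAM receptor linked to invasive and drug-tolerant states in human melanoma, was lower in CMM12. It had 456 and 399.5 CPM in CMM12 KO 1 and KO 2 and 406 CPM in the CMM12 control, against 975 and 626 CPM in CMM2 KO 1 and KO 2 and 955 CPM in the CMM2 control. The lines did not overlap, and the lowest CMM2 library was KO 2. edgeR gave a log2 fold change of CMM12 over CMM2 of −1.01 (SE 0.21, adjusted p = 0.0130). The call was lost when either control, CMM12 KO 2 or CMM2 KO 1 was left out (adjusted p = 0.0555 to 0.0719) and among the KO libraries alone (adjusted p = 0.0700). For KO against control edgeR gave AXL a log2 fold change of 0.08 (SE 0.33) in CMM12 and −0.25 (SE 0.32) in CMM2, neither called. Without CMM2 KO 2 the CMM2 value was 0.03. The 2 profiles nearest to that of AXL were KIF15 (0.07) and MCM5 (0.08).

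TYRO3 (ENSCAFG00000009632), the third TAM receptor, varied little. It had 27.0 and 27.5 CPM in CMM12 KO 1 and KO 2 and 30.2 CPM in the CMM12 control, against 18.4 and 21.3 CPM in CMM2 KO 1 and KO 2 and 21.1 CPM in the CMM2 control. The lines did not overlap, but with a log2 fold change of 0.48 (SE 0.18) TYRO3 missed the edgeR threshold between them (adjusted p = 0.0960), and it passed in none of the alternatives. Within the TAM family AXL held 84.1% to 97.3% of the TPM in every library. MERTK held 2.61% and 1.88% in CMM12 KO 1 and KO 2 and 6.93% in the CMM12 control, and at most 0.03% in CMM2.

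**Figure D3:**
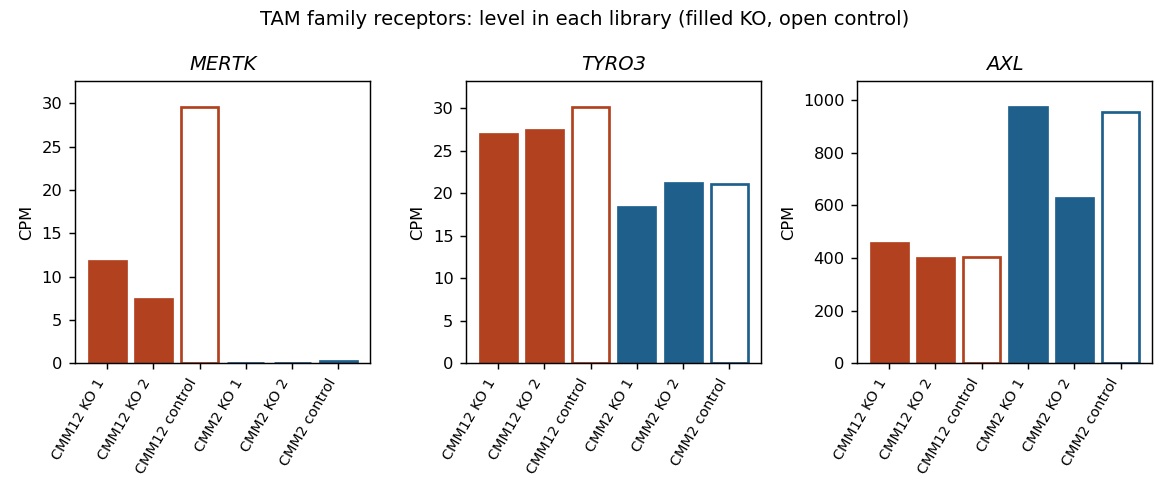
CPM of the TAM receptors MERTK, TYRO3 and AXL in each library, filled bars for KO and open bars for control, CMM12 in red and CMM2 in blue, on separate axes that start at 0. MERTK is high in the CMM12 control at 29.6 CPM and at most 0.286 CPM in CMM2, AXL is higher in CMM2, and TYRO3 is 18.4 to 30.2 CPM throughout.

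MET (ENSCAFG00000003406), the receptor of hepatocyte growth factor, lay lower in CMM12, with a test result near the threshold. It had 782 and 552 CPM in CMM12 KO 1 and KO 2 and 518 CPM in the CMM12 control, against 1205 and 786 CPM in CMM2 KO 1 and KO 2 and 1089 CPM in the CMM2 control. The highest CMM12 library, KO 1, lay just under the lowest CMM2 library, KO 2. The log2 fold change of CMM12 over CMM2 was −0.74 (SE 0.24), with an adjusted p of 0.0549 in edgeR and 0.0135 in DESeq2, and MET was called in 7 of the 17 alternatives. For KO against control edgeR gave 0.36 (SE 0.36) in CMM12 and −0.13 (SE 0.35) in CMM2 on the log2 scale, neither called.

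EGFR (ENSCAFG00000003465), the receptor of EGF, HBEGF and epiregulin among others, was low in both lines. It had 18.0 and 32.0 CPM in CMM12 KO 1 and KO 2 and 22.3 CPM in the CMM12 control, against 21.8 and 22.8 CPM in CMM2 KO 1 and KO 2 and 14.3 CPM in the CMM2 control. The lines overlapped, and the difference between them was 0.32 on the log2 scale (SE 0.27, edgeR adjusted p = 0.410). In CMM2 both KO libraries lay above the control, by 0.64 on the log2 scale (SE 0.42) and not called, while in CMM12 the control lay between the KO libraries.

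PDGFRA (ENSCAFG00000002057), a receptor of PDGF typical of mesenchymal cells, was lower in CMM12, and in both lines its KO libraries lay above the control without being called. It had 36.5 and 60.9 CPM in CMM12 KO 1 and KO 2 and 29.8 CPM in the CMM12 control, against 81.7 and 119 CPM in CMM2 KO 1 and KO 2 and 64.1 CPM in the CMM2 control. The lines did not overlap, and in each line KO 2 was the highest library. edgeR gave a log2 fold change of CMM12 over CMM2 of −1.06 (SE 0.24, adjusted p = 0.0184). That call was lost without CMM12 KO 1, without either control and among the KO libraries alone (adjusted p = 0.0511 to 0.0780), and with limma without a filter on low values (adjusted p = 0.0898). The KO difference was 0.70 (SE 0.40) in CMM12, 0.64 (SE 0.40) in CMM2 and 0.67 (SE 0.26) across lines on the log2 scale. Across lines edgeR's unadjusted p was 0.0350 and its adjusted p 0.987, so the KO difference was not called.

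PDGFRB (ENSCAFG00000018214), the PDGF receptor of pericytes and fibroblasts, was scarce, so its values carry more counting error. It had 65 and 107 counts in CMM12 KO 1 and KO 2 and 36 in the CMM12 control, against 23 and 52 counts in CMM2 KO 1 and KO 2 and 21 in the CMM2 control. On the CPM scale that was 5.93 and 10.5 in CMM12 KO and 3.11 in the CMM12 control, against 2.01 and 4.92 in CMM2 KO and 2.00 in the CMM2 control. KO 2 was again the highest library in each line, and CMM2 KO 1 was level with its control. edgeR called neither the lines (log2 fold change 1.05, SE 0.47, adjusted p = 0.138) nor the KO across lines (1.09, SE 0.52, unadjusted p = 0.0714, adjusted p = 0.987).

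Beside PDGFRB in the RefSeq gene order lies CSF1R, the receptor of colony-stimulating factor of macrophages. CSF1R was at 1.07 and 1.71 TPM in CMM12 KO 1 and KO 2 and 0.27 TPM in the CMM12 control, against 0.06 and 0.24 TPM in CMM2 KO and 0.03 TPM in the CMM2 control. Like PDGFRB it was highest in KO 2 of each line, but CSF1R had only 11 counts summed over CMM2. The gene order used here does not show whether their transcripts overlap, and sharing of reads between them was not tested. Fibroblast markers (8 of 8 listed) summed to 938 and 1651 TPM in CMM12 KO 1 and KO 2 and 2289 TPM in the CMM12 control, against 762 and 2741 TPM in CMM2 KO 1 and KO 2 and 323 TPM in the CMM2 control. POSTN was at most 0.05 TPM and FAP at most 0.70 TPM. Between the lines the markers did not move together, since of 7 tested 5 were higher in CMM12 and 2 lower. For KO against the 1 control in CMM2, 6 of the 7 were higher and 0 lower. Their median log2 difference there was 3.62, against 0.001 over all genes. For KO against the 1 control in CMM12, 2 were higher and 5 lower, with a median of −0.58, against 0.02 over all genes. THY1 had 8794 counts summed over CMM12 and 0 over CMM2. COL1A1 was lower in CMM12 (log2 fold change −4.27, SE 1.48), with an adjusted p of 0.0712 in edgeR and 0.0120 in DESeq2. In CMM2 PDGFRA followed the order of that sum, while PDGFRB was highest in KO 2 and level between KO 1 and the control. In CMM12 the control had the highest sum and the lowest PDGFRA and PDGFRB levels. The part of that sum in the receptor values was not tested.

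KIT (ENSCAFG00000002065), the receptor of stem cell factor and a lineage receptor of melanocytes, had 0 counts in all 6 libraries. A count of 0 allows up to 3 counts per library, which is 0.259 to 0.293 CPM at these depths. In the RefSeq order KIT lies between PDGFRA, detected in all 6 libraries, and KDR, the VEGF receptor of endothelium. KDR had 4 and 19 counts in CMM12 KO 1 and KO 2 and 93 in the CMM12 control, and 0 in every CMM2 library.

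FGFR1 (ENSCAFG00000005970), a receptor of fibroblast growth factors, did not separate the lines. It had 129 and 215 CPM in CMM12 KO 1 and KO 2 and 173 CPM in the CMM12 control, against 236 and 119 CPM in CMM2 KO 1 and KO 2 and 240.2 CPM in the CMM2 control. CMM2 KO 2 was the lowest of all 6 and stood at 49.5% of its control, while CMM2 KO 1 stood at 98.2%. edgeR gave a log2 difference between the lines of −0.19 (SE 0.30, adjusted p = 0.684), which turned to 0.02 on the TPM scale and to 0.09 without CMM2 KO 1. The KO difference in CMM2 was −0.44 (SE 0.46), not called, and −0.03 without CMM2 KO 2.

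IGF1R (ENSCAFG00000010881), the receptor of insulin-like growth factors, was lower in CMM12 in every library. It had 63.7 and 43.2 CPM in CMM12 KO 1 and KO 2 and 46.1 CPM in the CMM12 control, against 156 and 236 CPM in CMM2 KO 1 and KO 2 and 191 CPM in the CMM2 control. The highest CMM12 library lay well below the lowest CMM2 library. edgeR gave a log2 fold change of CMM12 over CMM2 of −1.93 (SE 0.23, adjusted p = 0.00213), and the call held in all 17 alternatives with adjusted p-values up to 0.0157. KO and control differed by 0.12 (SE 0.24) across lines on the log2 scale, not called.

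No receptor passed the test for KO against control, in either line or across lines. With 1 control per line, the spread in these comparisons came from the other libraries, and the lone control was assumed to vary like them. Across lines edgeR called 0 of the 9 receptors (0% of all genes) and DESeq2 called 0 (0.0725% of all genes). At an unadjusted p under 0.05 edgeR had 2 of the 9, MERTK and PDGFRA, against 4.03% of all genes. The median log2 difference across lines was 0.11 over the 9 receptors and 0.01 over all genes.

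Within CMM12 edgeR called 0 of the 9 (0.00815% of all genes) and DESeq2 called 0 (0.322% of all genes). MERTK alone of the 9 had an unadjusted p under 0.05 there, against 5.99% of all genes. Within CMM2 edgeR called 0 (0% of all genes) and DESeq2 called 0 (0.0361% of all genes), and 1 of the 9, again MERTK with its 3 counts, had an unadjusted p under 0.05, against 1.9% of all genes. For the difference between the KO effects of CMM12 and CMM2 edgeR called 0 (0% of all genes) and DESeq2 called 0 (0.164% of all genes). None of the 9 had an unadjusted p under 0.05 for that difference, against 3.84% of all genes, and the smallest among them was 0.0783, for MERTK.

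By the side of the control on which the KO libraries fell, the counts of receptors were near those of all genes. In CMM12 both KO libraries lay on 1 side of the control for 5 of the 9, against 69.8% of all genes. MET, PDGFRA and PDGFRB lay above it there, and MERTK and TYRO3 below it. In CMM2 this held for 5 of the 9, against 61% of all genes, with EGFR, PDGFRA and PDGFRB above the control and MERTK and FGFR1 below it. All 4 KO libraries lay above their control for PDGFRA and PDGFRB (10.5% of all genes) and below it for MERTK (10.6% of all genes). For PDGFRB in CMM2 KO 1 that margin was 2.01 against 2.00 CPM.

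**Figure D4:**
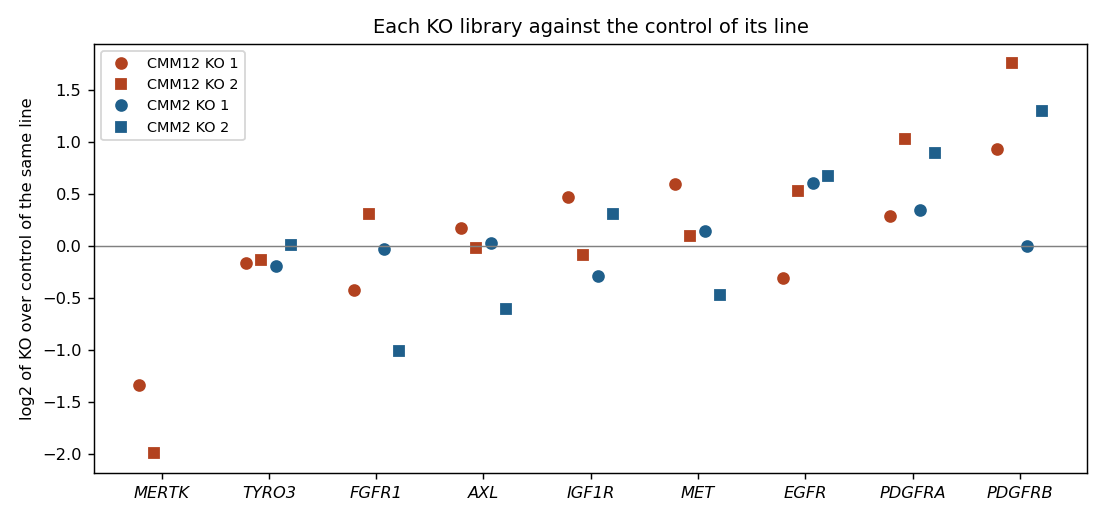
log2 ratio of CPM in each KO library to the control of its line, circles for KO 1 and squares for KO 2, CMM12 in red and CMM2 in blue, for the receptors tested; MERTK in CMM2 is left out because all 3 libraries are at or under 3 counts. MERTK lies below 0 in both CMM12 KO lines and PDGFRA above 0 in all 4. For AXL, TYRO3, MET, EGFR, FGFR1 and IGF1R the KO libraries of at least 1 line fall on both sides of 0.

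Of the ligand genes tested, edgeR called HBEGF, NRG2, FGF7 and FGF5 higher and KITLG lower in CMM12. The lists of ligands, adaptors and inhibitors that follow were chosen with earlier results of these data known. The TAM ligands were barely present, with GAS6 at most at 0.23 TPM and PROS1 at most at 0.38 TPM, and neither passed the filter. HGF, the ligand of MET, was at 8.52 and 13.83 TPM in CMM12 KO 1 and KO 2 and 3.24 TPM in the CMM12 control, against 4.82 and 6.01 TPM in CMM2 KO and 4.38 TPM in the CMM2 control, and was not called. SPINT1 and SPINT2, inhibitors of the proteases that activate HGF, were called higher by edgeR and had no count in any CMM2 library. SPINT1 was at 31.58 and 38.10 TPM in CMM12 KO and 25.06 TPM in the CMM12 control, at least 147-fold higher in CMM12 against the floor of 3 counts per library. SPINT2 was at 15.74 and 23.01 TPM in CMM12 KO and 34.60 TPM in the CMM12 control, at least 99.0-fold higher in CMM12. They were the 2 called of 3 genes tested among HGF, its activators and their inhibitors (14.6% of all genes were called higher), and the list's median log2 fold change was 6.63 with genes at 0 set at that floor, against 0.04 over all genes. SPINT1 and SPINT2 passed the filter on low counts through CMM12 alone, so both could only come out higher there.

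Of 4 tested ligands of the EGFR family 2 were called higher in CMM12 (14.6% of all genes) and none lower (11.2% of all genes), with a median log2 fold change of 1.71. HBEGF was at 17.06 and 29.70 TPM in CMM12 KO 1 and KO 2 and 36.91 TPM in the CMM12 control, against 4.96 and 5.23 TPM in CMM2 KO and 7.49 TPM in the CMM2 control. Its log2 fold change of CMM12 over CMM2 was 2.08 (SE 0.24, edgeR adjusted p = 0.00187), and that of NRG2, a ligand of ERBB3 and ERBB4, was 2.46 (SE 0.52, edgeR adjusted p = 0.0138). EREG, which encodes epiregulin, reached 154 TPM in CMM12 KO 2 against 19.73 to 45.35 TPM in the other libraries, and was not called. EGF, AREG and BTC were at 0 in all 6 libraries.

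The 3 PDGF ligands tested were not called by edgeR between the lines, although DESeq2 called PDGFA (adjusted p = 0.0448). They had log2 fold changes of 0.92 (SE 0.34) for PDGFA, 1.32 (SE 0.46) for PDGFB and 0.42 (SE 0.20) for PDGFC. PDGFC, a ligand of PDGFRA, was at 71.04 and 68.88 TPM in CMM12 KO 1 and KO 2 and 49.29 TPM in the CMM12 control, against 41.74 and 60.46 TPM in CMM2 KO and 29.67 TPM in the CMM2 control. All 4 KO libraries thus lay above their control, with a KO difference across lines of 0.66 on the log2 scale (SE 0.22, edgeR adjusted p = 0.987).

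Among 3 tested FGF ligands 2 were called higher in CMM12, against 14.6% of all genes, with a median log2 fold change of 1.03. FGF7, or keratinocyte growth factor, was at 117.59 and 68.99 TPM in CMM12 KO 1 and KO 2 and 44.16 TPM in the CMM12 control, against 0 and 3.57 TPM in CMM2 KO and 0 in the CMM2 control. Its log2 fold change was 6.06 (SE 0.93, edgeR adjusted p = 0.00486), and that of FGF5 was 1.03 (SE 0.28, edgeR adjusted p = 0.0351). KITLG, the ligand of the undetected KIT, was lower in CMM12, at 42.98 and 34.66 TPM in CMM12 KO and 21.32 TPM in the CMM12 control, against 75.30 and 42.66 TPM in CMM2 KO and 55.50 TPM in the CMM2 control. In TPM the highest CMM12 library lay just above the lowest CMM2 library, and the log2 fold change was −0.99 (SE 0.29, edgeR adjusted p = 0.0426).

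IGF1 was at 0 in all 6 libraries and IGF2 reached at most 0.84 TPM. Of 5 tested genes in the list of IGF ligands and binding proteins 3, all binding proteins, were called higher in CMM12, against 14.6% of all genes. The 5 held no ligand and included the receptor IGF2R (log2 fold change 0.25, SE 0.19, not called). The median log2 fold change of the 5 was 2.03, and 1.52 with IGFBP5 set at the floor. IGFBP4, which binds IGFs and limits their access to the receptor, had a log2 fold change of 5.12 (SE 0.48, edgeR adjusted p = 0.00100), and IGFBP7 one of 2.03 (SE 0.21, edgeR adjusted p = 0.00150). IGFBP7 was at 337 and 423 TPM in CMM12 KO and 259 TPM in the CMM12 control, against 85.5 and 63.6 TPM in CMM2 KO and 75.0 TPM in the CMM2 control. IGFBP5 was scarce, at most 1.24 TPM in CMM12 and with no count in CMM2.

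**Figure D5:**
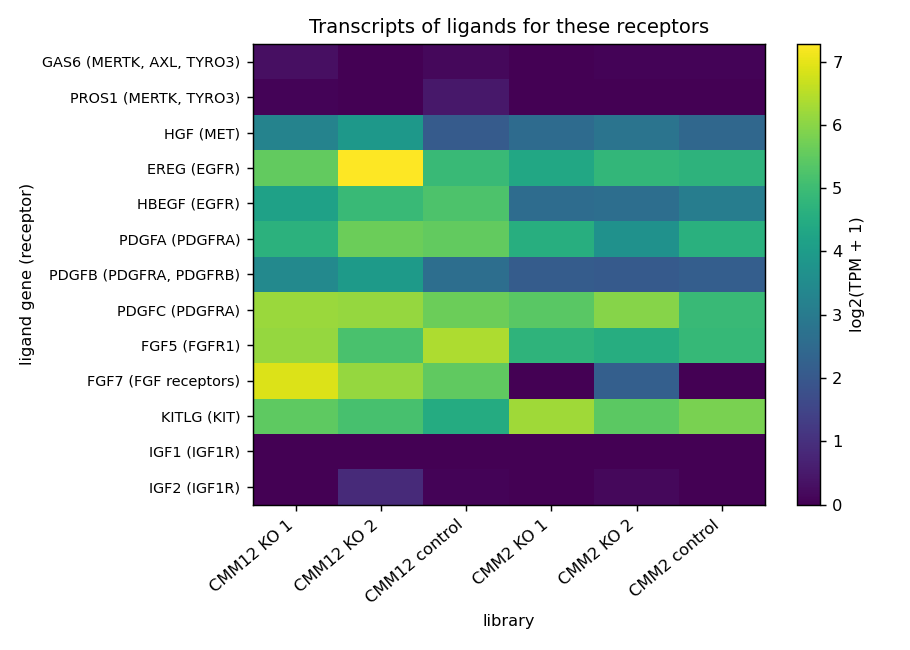
log2(TPM + 1) of 13 ligand genes, with their receptors in brackets, in each library, CMM12 left and CMM2 right. GAS6, PROS1, IGF1 and IGF2 are dark in all 6 libraries, FGF7 is 44.16 TPM or more in CMM12, and in CMM2 it is 3.57 TPM in KO 2 and 0 in the other libraries.

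Downstream of the receptors, 32 adaptors and effectors were tested, of which edgeR called 7 higher and 2 lower in CMM12, against 14.6% and 11.2% of all genes. GAB1, a docking protein that binds activated MET, had 26.4 and 23.8 CPM in CMM12 KO 1 and KO 2 and 24.8 CPM in the CMM12 control, against 0.961 and 0 CPM in CMM2 KO and 0.859 CPM in the CMM2 control (log2 fold change 5.34, SE 0.67, edgeR adjusted p = 0.00246). The SRC-family kinase FYN was also higher (1.89, SE 0.29, edgeR adjusted p = 0.00480). IRS1, the docking protein of IGF1R and the insulin receptor, was lower in CMM12. It had 2.92 and 3.72 CPM in CMM12 KO and 2.93 CPM in the CMM12 control, against 13.1 and 27.2 CPM in CMM2 KO and 11.7 CPM in the CMM2 control (log2 fold change −2.40, SE 0.37, edgeR adjusted p = 0.00480). In both lines KO 2 was the highest library for IRS1. INSR, the insulin receptor, had a log2 fold change of 1.496 (SE 0.63), not called by edgeR (adjusted p = 0.118) and called by DESeq2 (adjusted p = 0.0432). The median log2 fold change of the 32 was 0.15, against 0.04 over all genes.

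Of 16 tested receptor inhibitors, ubiquitin ligases and sheddases 2 were called higher in CMM12 and 4 lower, against 14.6% and 11.2% of all genes, with a median log2 fold change of 0.11. GRB10, an adaptor that binds and restrains IGF1R and the insulin receptor, had 2 and 0 counts in CMM12 KO 1 and KO 2 and 3 counts in the CMM12 control, against 84 and 214 counts in CMM2 KO and 69 counts in the CMM2 control. Its log2 fold change was −6.05 (SE 0.83, edgeR adjusted p = 0.00329). FGFRL1, an FGF-binding receptor without a kinase domain, was higher in CMM12 (3.71, SE 0.62, edgeR adjusted p = 0.00632). LRIG3, of a family of which LRIG1 lowers receptor levels, summed to 71 counts in CMM12 against 1 in CMM2, a ratio of 70.4 (12.2 to 2819, counting error only).

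Among 21 other RTKs tested, edgeR called 7 higher and 2 lower in CMM12, against 14.6% and 11.2% of all genes. FGFR3 was higher, with a log2 fold change of 2.93 (SE 0.50, edgeR adjusted p = 0.00697), as was CSF1R (3.08, SE 0.70, edgeR adjusted p = 0.0185). KDR, with 116 counts summed over CMM12, was at least 12.8-fold higher against the floor in CMM2. Most of those counts came from the CMM12 control, as given above, so the bound does not hold for each CMM12 library. The median over the 21 was 0.75 on the log2 scale, while that of the 9 melanoma receptors was −0.19. In the list of 11 genes of dedifferentiated melanoma, all tested, 5 were called higher and 2 lower in CMM12, against 14.6% and 11.2% of all genes, with a median of 0.67. The lower ones were CCN1 (−1.35, SE 0.24, edgeR adjusted p = 0.00813) and ZEB1 (−0.96, SE 0.18, edgeR adjusted p = 0.00959), and TGFBI was at least 111-fold higher in CMM12.

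For KO against control across lines, edgeR and DESeq2 called 0 genes in every one of these lists. At an unadjusted p under 0.05 edgeR had 6 of their 99 tested genes, against 4.03% of all genes. The genes with the smallest p of their lists had log2 differences of 2.33 (SE 0.81) for CSF1R, 0.98 (SE 0.40) for HGF, −0.60 (SE 0.24) for HBEGF, 1.11 (SE 0.48) for IGFBP4 and −0.39 (SE 0.20) for BRAF. The other genes chosen this way were PDGFC, given above, FGF7 (1.52, SE 0.92), KITLG (0.46, SE 0.31), LRIG3 (−1.75, SE 0.79) and NGFR (3.41, SE 1.51), all with an edgeR adjusted p of 0.987. NGFR had 12 and 33 counts in CMM12 KO 1 and KO 2, 2 in the CMM12 control and none in CMM2. Within CMM12 DESeq2 called ERRFI1, which is named after its values were seen. ERRFI1, a feedback inhibitor of EGFR, had 999 and 948 CPM in CMM12 KO 1 and KO 2, against 525 CPM in the CMM12 control (log2 difference 0.89, SE 0.25, adjusted p = 0.702 in edgeR and 0.0321 in DESeq2).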

How the data were processed

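STAR 2.7.3a, RSEM 1.3.3 and CanFam3.1 are the tools and build in the submitters' processing notes, and the labels' protocols name an RNeasy kit and a NEBNext Ultra library kit. No source used here gives the strand setting. Unscaled expected counts and TPM values, scaled for transcript length, were deposited by the authors for every library, per the file headers. Estimates of this kind share reads between near-identical copies of a gene. Groups came from the titles.

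Expected counts were rounded, which changed 3.22% to 3.63% of the values. Every pair of libraries within a line differed by more than sampling noise, with a chi-square statistic of 13.9 to 56.8 per degree of freedom. Genes were tested with edgeR 4.0.16 in R 4.3.3 (TMM, filterByExpr on the 4 groups, glmQLFit, glmQLFTest, Benjamini-Hochberg). Lines, and KO across lines, were compared in a model of line plus genotype, with 3 residual degrees of freedom. KO within lines, and its difference between lines, came from the means of the 4 groups, with 2 residual degrees of freedom. Standard errors were derived from the quasi-likelihood F. The scripts were tested on simulated data. Counting intervals and the floor of 3 counts cover counting error only.

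Alternatives were DESeq2 1.42.0, size factors by median of ratios, no filter on low counts, at least 1 CPM in 2 libraries, a bias-adjusted quasi-likelihood fit, limma 3.58.1 on log2(TPM + 1) and log2(TPM + 0.1) over genes with 1 TPM in a library and without that filter, KO number as a replicate block, KO libraries alone, line as the only term, and leaving out each library.

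All 10 receptors were named. Each list gave up to 3 tested genes with the smallest edgeR p between lines and the 1 with the smallest p for KO across lines, and ligands could be given by level. Markers and ligands at 0 are named for their levels only. Receptors and lists were chosen with earlier results of these data known. FGF2, TGFA, NRG4, IGFBP1 and SOCS3 were not matched by symbol and are not used here, and 1 gene of the lists is not reported here. Gene order came from a RefSeq table of another assembly, for neighbours only.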

Additional observations from a re-analysis of the deposited data

Results flagged for a closer look

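No receptor of the 10 had both KO libraries of CMM12 on one side of the control and both of CMM2 on the other. Among the other genes named, 8 did. edgeR's test of the difference between the KO effects gave each of the 8 an adjusted p of 1.00, while DESeq2 called PTK7. PTK7 and ERRFI1 were chosen after their values were seen.

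PDGFB, a ligand of both PDGF receptors, had 5.83 and 8.12 CPM in CMM12 KO 1 and KO 2, against 2.85 CPM in the CMM12 control, and 2.10 and 1.89 CPM in CMM2 KO, against 2.29 CPM in the CMM2 control. The KO effect in CMM12 minus that in CMM2 was 1.49 on the log2 scale (SE 0.84, edgeR unadjusted p = 0.123). For FGF18, an FGF ligand with at most 12 counts in a library, that difference was 4.03 (SE 2.23, edgeR unadjusted p = 0.117). FYN had 64.3 and 42.4 CPM in CMM12 KO, against 74.6 CPM in the CMM12 control, and 15.0 and 20.6 CPM in CMM2 KO, against 13.1 CPM in the CMM2 control, a difference of −0.93 (SE 0.53, edgeR unadjusted p = 0.123). GRB10 gave −2.42 (SE 1.75, edgeR unadjusted p = 0.211), with no more than 3 counts in any CMM12 library.

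MITF had 15.4 and 20.1 CPM in CMM12 KO, against 28.4 CPM in the CMM12 control, and 24.1 and 27.9 CPM in CMM2 KO, against 21.2 CPM in the CMM2 control, a difference of −0.97 (SE 0.47, edgeR unadjusted p = 0.0776). For SLC45A2 the difference was 0.48 (SE 0.41, edgeR unadjusted p = 0.280). PTK7, a receptor without an active kinase, had 86.8 and 83.5 CPM in CMM12 KO, against 181 CPM in the CMM12 control, and 61.7 and 89.6 CPM in CMM2 KO, against 39.99 CPM in the CMM2 control. The difference was −2.002 in edgeR (SE 0.41), which did not call it, while the separate DESeq2 fit gave an adjusted p of 0.0370. ERRFI1 lay above the control in both CMM12 KO libraries and had 732 and 755 CPM in CMM2 KO, against 759 CPM in the CMM2 control, a difference of 0.92 (SE 0.33, edgeR unadjusted p = 0.0306, DESeq2 adjusted p = 0.575).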

How the results depend on the processing

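Between the lines edgeR called 3170 genes and 4 of the receptors. Among the KO libraries alone it called 1694 genes and 2 receptors, and with single libraries left out 1499 to 3096 genes and 2 to 5 receptors. The count fell to 1690 genes without CMM12 KO 2, 1717 without the CMM12 control, 1499 without CMM2 KO 1 and 1680 without the CMM2 control, and to 2 receptors without either control. For KO against control across lines the count of genes called was 0, against 9 with DESeq2, 15 without a low-count filter, 3 with limma on log2(TPM + 1), 2 with limma on log2(TPM + 0.1), and 0 to 1 with a library left out. In CMM12 it was 1, against 42 with DESeq2, 26 without a filter, 0 at 1 CPM in 2 libraries, 4 with the bias-adjusted fit, 0 with limma at either pseudocount, 75 with limma without a filter, 9 with the replicate block, and 0 to 14 with a library left out (5 without CMM12 KO 1, 14 without CMM12 KO 2 and 0 without any 1 CMM2 library). In CMM2 it was 0, against 6 with DESeq2, 1 without a filter and 0 to 1 with a library left out. For the difference between lines it was 0, against 23 with DESeq2, 2 without a filter and 0 to 1 with a library left out. The receptors called for KO stayed at 0 in all of these settings. The cause of these shifts was not tested.

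Signs turned only in comparisons where the receptor was not called. FGFR1 between the lines was −0.19, against 0.016 and 0.017 with limma (0.016 without a filter). Under the replicate block AXL across lines was 0.10, EGFR in CMM12 −0.10, FGFR1 in CMM12 0.070 and MET in CMM2 0.12. With a library left out FGFR1 ran from −0.46 to 0.091 between the lines. Across lines AXL ran from −0.25 to 0.077, MET from −0.13 to 0.36 and IGF1R from −0.016 to 0.26. In CMM12 AXL ran from −0.021 to 0.17, EGFR from −0.31 to 0.52, FGFR1 from −0.42 to 0.31 and IGF1R from −0.090 to 0.47. In CMM2 AXL ran from −0.61 to 0.026, TYRO3 from −0.20 to 0.012, MET from −0.47 to 0.14, PDGFRB from −0.00016 to 1.29 and IGF1R from −0.30 to 0.31. The log2 ratio of mean TYRO3 levels, CMM12 over CMM2, was 0.61 in TPM, against 0.48 in CPM.

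The deviations of KO 1 from the KO mean in CMM12 and in CMM2 correlated at r = 0.05 across 8659 genes, which are not independent replicates. That value cannot show whether KO numbers pair the lines for a few genes. The KO effect of a line could not be fitted without that line's control. Depth limits what can be said of KIT, of MERTK in CMM2 and of PDGFRB, whose counts are low.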
